A study of Mus musculus with 4 samples.

Results

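The genes described here are the splicing factor and hnRNP genes, 71 of the 15305 gene rows in a table of single mouse cells. The rule that selects them reads the gene symbol and takes every row of the hnRNP, SR protein (Srsf), SF3, Snrp, Celf, Elavl, Rbfox, Nova, Ptbp and Clk families. General factors made up 54 rows: 20 hnRNP, 10 SR protein, 9 SF3, 11 Sm and U snRNP and 4 CLK kinase genes. Neuronal factors made up 9 rows (Celf4, Celf5, Elavl3, Elavl4, Nova1, Nova2, Ptbp2, Rbfox1 and Rbfox3). Another 6 rows (Celf1, Celf2, Elavl1, Ptbp1, Ptbp3 and Rbfox2) are relatives of those genes that many tissues express and are called broad members. The remaining 2 rows, Snrpert and Srsf3-ps, are annotated as pseudogenes.

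Introns are removed from new transcripts by the spliceosome, whose U1, U2, U4 and U5 particles each carry a ring of Sm proteins and whose U2 particle holds the SF3A and SF3B complexes at the branch point. SR proteins generally promote the use of the exons they bind, hnRNP proteins often repress it, and CLK kinases phosphorylate SR proteins. In neurons and their young precursors further RNA-binding proteins are added, among them the ELAVL, CELF, RBFOX and NOVA families. Ptbp2 takes over from Ptbp1 as neural progenitors become neurons.

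The cells came from mice of the Penk-Cre Ai9 line, with the genotype given as WT, in which the red reporter tdTomato marks cells with present or past Cre expression from the Penk gene. Subventricular and striatal tissue was dissociated and its cells were sorted singly as tdTomato+ and CD11b- (dataset A) or as tdTomato+ alone (dataset B). CD11b is a microglial surface protein. Age, sex and the number of mice are not given in the sources used here. In each dataset the labels list 2 samples, of neuroblasts and of quiescent neural stem cells, but the 82 columns carry only a dataset, a plate and a well, so no cell could be assigned to a labelled sample.

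Cells were therefore grouped by 2 genes of their own counts. Sox11, a transcription factor of young neurons, was at 10 or more counts in 41 cells (16 of dataset A and 25 of B), called Sox11 cells. Enpp2, the autotaxin gene, abundant in choroid plexus epithelium, gave 1% or more of the counts in 30 cells (14 of A and 16 of B), called Enpp2-rich cells. A group of 9 cells met neither condition, all from dataset A, and 2 cells of dataset A met both and entered no class. The lowest Sox11 count inside the first class was 20 and the highest outside was 7. For Enpp2 the lowest share inside was 1.25% and the highest outside was 0.999%. These gates select ranges of 1 gene each and are not the study's annotation.

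The gates were compared with marker lists. Of 11 neuroblast markers, a Sox11 cell had a median of 7 detected in dataset A and 9 in dataset B, and the Enpp2-rich and remaining cells had a median of 0. Detected means 10 or more counts in a cell here and below. Of 11 choroid plexus markers the Enpp2-rich cells had medians of 8.5 and 7.5 and the Sox11 cells 0. Not every Sox11 cell was free of other markers: 4 of 16 in dataset A had 3 or more choroid plexus markers, up to 10 of 11, and 1 of dataset A and 4 of dataset B had 3 or more of 10 microglial markers. In dataset A 2 Sox11 cells also had 3 or more of 8 striatal projection neuron markers and 1 had 5 of 10 astroglia markers, and in dataset B 3 Enpp2-rich cells had all 3 ependymal markers of the table. The Sox11 cells with choroid plexus or microglial markers were 8 different cells, of which 7 also had 3 or more neuroblast markers. The 9 remaining cells had a median of 5 of 10 astroglia and quiescent stem cell markers. One Sox11 cell, in dataset A, had fewer than 3 neuroblast markers, and 1 Sox11 cell had 78.2% of its counts in Ttr. The number of members at least 4-fold higher was 20 with all cells, 20 without the cell with few markers and 20 without these 8 cells, and the difference in general members per cell was 10.5 with all cells and 10.25 without those 8. Among the 9 remaining cells 2 stood apart, with 38 and 125 genes detected at a common depth against 626 to 970 in the other 7, and in one of these 2 Mbp, a myelin gene, took 28.8% of the counts. Values without these 2 cells are given below.

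Levels are CPM, counts scaled to a common total of 1000000, computed without Ttr and Enpp2 so that these 2 abundant transcripts do not dilute the rest. Between 528221 and 3353557 counts per cell remained. Within a dataset the cells of a class were added up, giving 5 pools of 16184123 to 51274680 counts, and each class thus has at most 1 pool per dataset. The exact 95% intervals given below are binomial intervals over cells and cover the error of counting cells only, since the cells come from 2 datasets and an unknown number of mice. The labels' protocols mention no molecular identifiers. Where no cell had a gene, the upper limit given is 3 cells of the number examined. Nothing in the labels says that the pools came from different animals, so p-values measure the spread between these pools only.

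The promoter sequence just upstream of 3 members is shown because no annotated transcript covers any of its bases and because these members show the patterns described below: a neuronal factor seen nearly only in Sox11 cells (Elavl3), a general factor seen in all classes (Hnrnpu) and a general factor rarely seen outside Sox11 cells (Hnrnpa0). Each run is 120 bases, 5′ to 3′ on the gene's strand, and ends 1 base before the annotated start. Sequences and coordinates are from RefSeq, build GRCm38.p6. Elavl3 lies at chr9:22052024-22052143, Hnrnpu at chr1:178337816-178337935 and Hnrnpa0 at chr13:58128557-58128676, all on the minus strand. Capitals mark the letters of the GC box (GGGCGG), the CCAAT box (CCAAT) and the ETS core (CCGGAAG) on either strand.
Elavl3: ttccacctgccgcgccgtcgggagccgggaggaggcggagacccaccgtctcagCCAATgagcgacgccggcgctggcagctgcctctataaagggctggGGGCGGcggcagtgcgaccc
Hnrnpu: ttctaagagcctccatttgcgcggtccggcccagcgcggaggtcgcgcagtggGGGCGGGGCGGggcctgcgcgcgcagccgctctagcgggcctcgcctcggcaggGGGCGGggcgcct
Hnrnpa0: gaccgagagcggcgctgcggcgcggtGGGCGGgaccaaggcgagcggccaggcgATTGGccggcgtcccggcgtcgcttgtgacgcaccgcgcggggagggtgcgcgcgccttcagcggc

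All 3 runs hold a GC box, a run of letters that SP family factors bind, and Elavl3 and Hnrnpa0 also hold a CCAAT box. Over the 250 bases before the start, 59 of 71 members had a window that was used here, 47 of them general and 8 neuronal, against 27025 genes in all. Windows on a single chromosome were left out for members and kept among all genes. The 27025 genes also include ones that are not in the count table. GGGCGG was in 34 of 47 general windows (72.3%), 4 of 8 neuronal windows and 32.9% of all windows. CCGGAAG was in 16 of 47 general windows (34.0%), 0 of 8 neuronal windows and 7.05% of all. CCAAT was in 21 general windows (44.7%) and 34.5% of all. The Sox core AACAAT was in 1 general and 1 neuronal window and 9.65% of all windows, the E-box CAGCTG in 3 and 2 and 12.8%, and TATAAA in 5 and 1 and 13.0%. The cyclic AMP element TGACGTCA was in 3 general windows (6.38%) and 1.62% of all. The median number of CG pairs was 19 in general windows, 12.5 in neuronal windows and 6 in all. Letters were searched on both strands, GC boxes overlap CG pairs, and a match describes the window without showing a bound factor.

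Over all families, more general factors were detected in the median Sox11 cell than in the median Enpp2-rich cell, and neuronal factors were rarely detected outside Sox11 cells. With every cell thinned to 500000 counts, the general members detected per cell had a lowest, median and highest number of 3, 17.5 and 32 in Sox11 cells of dataset A and 10, 16 and 40 in dataset B. In Enpp2-rich cells the numbers were 1, 3.5 and 13 (dataset A) and 1, 9 and 26 (dataset B), and in the 9 remaining cells 0, 9 and 16, or 6, 10 and 16 without the 2 cells with few genes. The ranges overlapped, while both Sox11 medians lay above all 3 others. The medians averaged 16.8 ± 1.06 (SD, n = 2 datasets) against 6.25 ± 3.89, a difference of 10.5 members (14 in dataset A and 7 in dataset B). The exact two-sided permutation p was 0.333 with the 4 pools exchanged freely and 0.5 with exchange within datasets, each the smallest its scheme allows. Neuronal members detected per cell had medians of 2 and 3 in Sox11 cells and 0 in the other pools, a difference of 2.5 under the same limits on p.

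**Figure D1:**
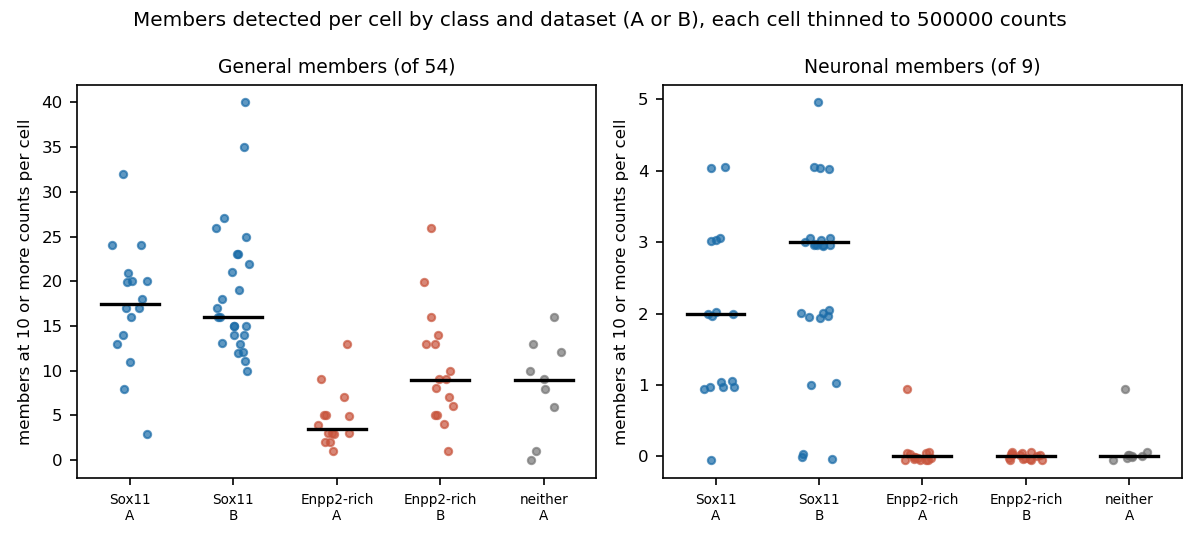
Number of general (left, of 54) and neuronal (right, of 9) members at 10 or more counts in each cell, after thinning to 500000 counts, by class and dataset; points are cells and bars are medians. The Sox11 medians for general members are 17.5 and 16, against 3.5, 9 and 9 in the other pools, and at most 1 neuronal member is seen in any cell of the other classes.

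The total number of genes detected at this depth was also higher in the median Sox11 cell, by a smaller ratio. The median number of genes detected, among the 5790 at 10 or more counts in at least 5 cells, was 1055.5 and 999 in the Sox11 pools, 737 and 938.5 in the Enpp2-rich pools and 833 in the remaining cells. As a share of the list, that was 18.2% and 17.3%, against 12.7%, 16.2% and 14.4%. For general members the corresponding shares were 32.4% and 29.6%, against 6.48%, 16.7% and 16.7%. The part of this wider difference in the members' difference was not tested.

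Plates differed within dataset B. On plate P1 the 2 Enpp2-rich cells had 20 and 26 general members, within the range of the 12 Sox11 cells there, whose median was 22.5. On plate P3 the medians were 11.5 in 4 Enpp2-rich and 14 in 3 Sox11 cells, and on plate PL4 they were 7.5 in 10 and 12 in 4. The class difference in general members was thus smaller within the plates of dataset B than on the single plate of dataset A, and was not seen on P1. Classes were spread unevenly over these plates: P1 held 12 of 25 Sox11 and 2 of 16 Enpp2-rich cells, and PL4 held 4 and 10. The difference of 7 members in dataset B, and the pool levels of dataset B, therefore mix class and plate. Neuronal members had a median of 0 in Enpp2-rich cells on every plate, and of 3 on P1, 2 on P2, 1 on P3, 2 on PL4 and 2 on the dataset A plate in Sox11 cells.

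General factors took 1.64% and 1.73% of all counts in the Sox11 pools of datasets A and B, 0.333% and 0.593% in the Enpp2-rich pools and 0.922% in the remaining cells. In single cells, 39 of 41 Sox11 cells lay above the highest Enpp2-rich cell, whose general members summed to 9009 CPM. The hnRNP genes took 0.720% and 0.780% of counts in the Sox11 pools, 0.200% and 0.266% in the Enpp2-rich pools and 0.312% in the remaining cells. SR protein genes took 0.288% and 0.487%, against 0.0430%, 0.0976% and 0.278%. CLK kinase genes took 0.172% and 0.176%, against 0.000225%, 0.0189% and 0.138%. The pool of the remaining cells was thus nearer the Sox11 pool of its dataset for SR protein and CLK genes. It was nearer the Enpp2-rich pools for hnRNP genes. Both held without the 2 cells with few genes (0.370%, 0.184% and 0.415% for SR protein, CLK and hnRNP genes). For CLK genes the pool rests on few cells. In dataset A the median remaining cell summed to 205 CPM of CLK genes, against 1537 CPM in Sox11 and 0 CPM in Enpp2-rich cells. Sm and U snRNP genes took 0.229% and 0.102%, against 0.0492% and 0.0935%, so that the classes were apart in dataset A and close in dataset B. Most of the value of the Sox11 A pool was Snrpe, which rests on 1 cell.

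**Figure D2:**
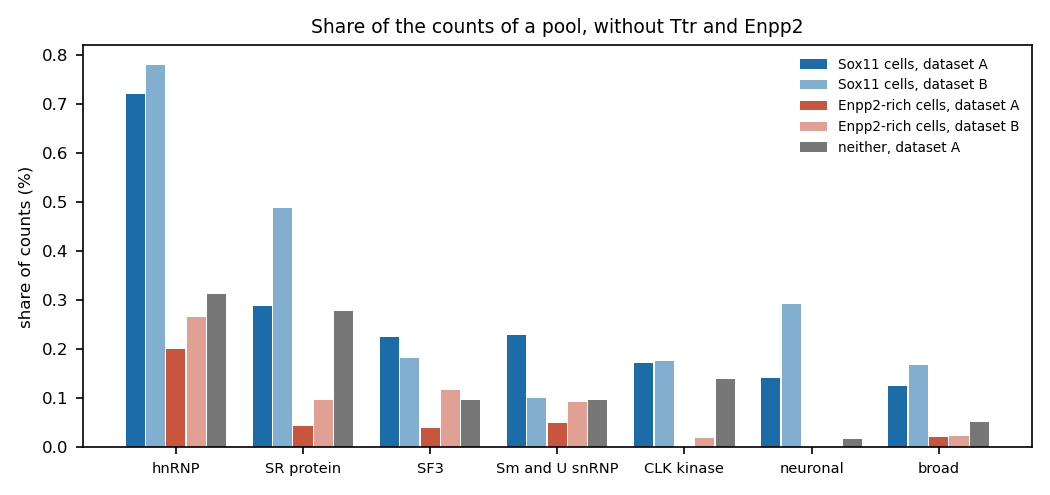
Share of a pool's counts (%, without Ttr and Enpp2) taken by each family, one bar per pool and no error bar since each class has 1 pool per dataset. The hnRNP bars of the Sox11 pools stand at 0.720% and 0.780%, and the neuronal bars of the Enpp2-rich pools are too low to see.

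Of the 71 members, 59 had 10 or more counts in at least 5 cells: 49 general, 4 neuronal, 5 broad and the pseudogene row Snrpert. The members under this limit were Celf5, Clk2, Hnrnpll, Hnrnpul2, Nova1, Nova2, Ptbp3, Rbfox1, Rbfox3, Sf3a2, Srsf3-ps and Srsf4. Of the 59, 22 met the limit through Sox11 cells alone (37.3%), among them all 4 neuronal members, and 4 of the 5 broad members. The corresponding share of all 5790 genes was 32.1%. For such genes detection in Sox11 cells decided that they were compared at all, so counts of higher members are a description and partly set by the limit. At least 4-fold higher levels in Sox11 than in Enpp2-rich pools in both datasets, with 1 CPM added, were seen for 20 of the 59 members (33.9%) and for 19.9% of all genes. At least 4-fold lower levels in both were seen for 0 of the 59 members and 9.69% of all genes. In dataset A alone 34 members were at least 4-fold higher and 1 lower (39% and 20.2% of all genes), and in dataset B alone 23 and 3 (31.5% and 19.8%). At 2-fold in both datasets 29 were higher and 1 lower (27.7% and 15.1% of all genes). Median log2 differences in datasets A and B were 2.94 and 1.14 for the members, and 0.76 and 0.34 for all genes.

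By share of cells with detection, 45 of the 59 members (76.3%) were in a higher share of Sox11 than of Enpp2-rich cells in both datasets and 2 in a lower share, against 39.2% and 24.1% of all genes. Families differed in these counts. Higher shares were found for 17 of 18 hnRNP, 8 of 9 SR protein, 3 of 3 CLK, 4 of 8 SF3 and 5 of 11 Sm and U snRNP genes. The 4-fold limit was met by 7 hnRNP, 3 SR protein, 2 CLK, 1 SF3 and 0 Sm and U snRNP genes. These were 13 general members in all (26.5% of 49), against 19.9% of all genes. Of the broad members, 3 of 5 met it, among genes of which 4 had been admitted through Sox11 cells alone.

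**Figure D3:**
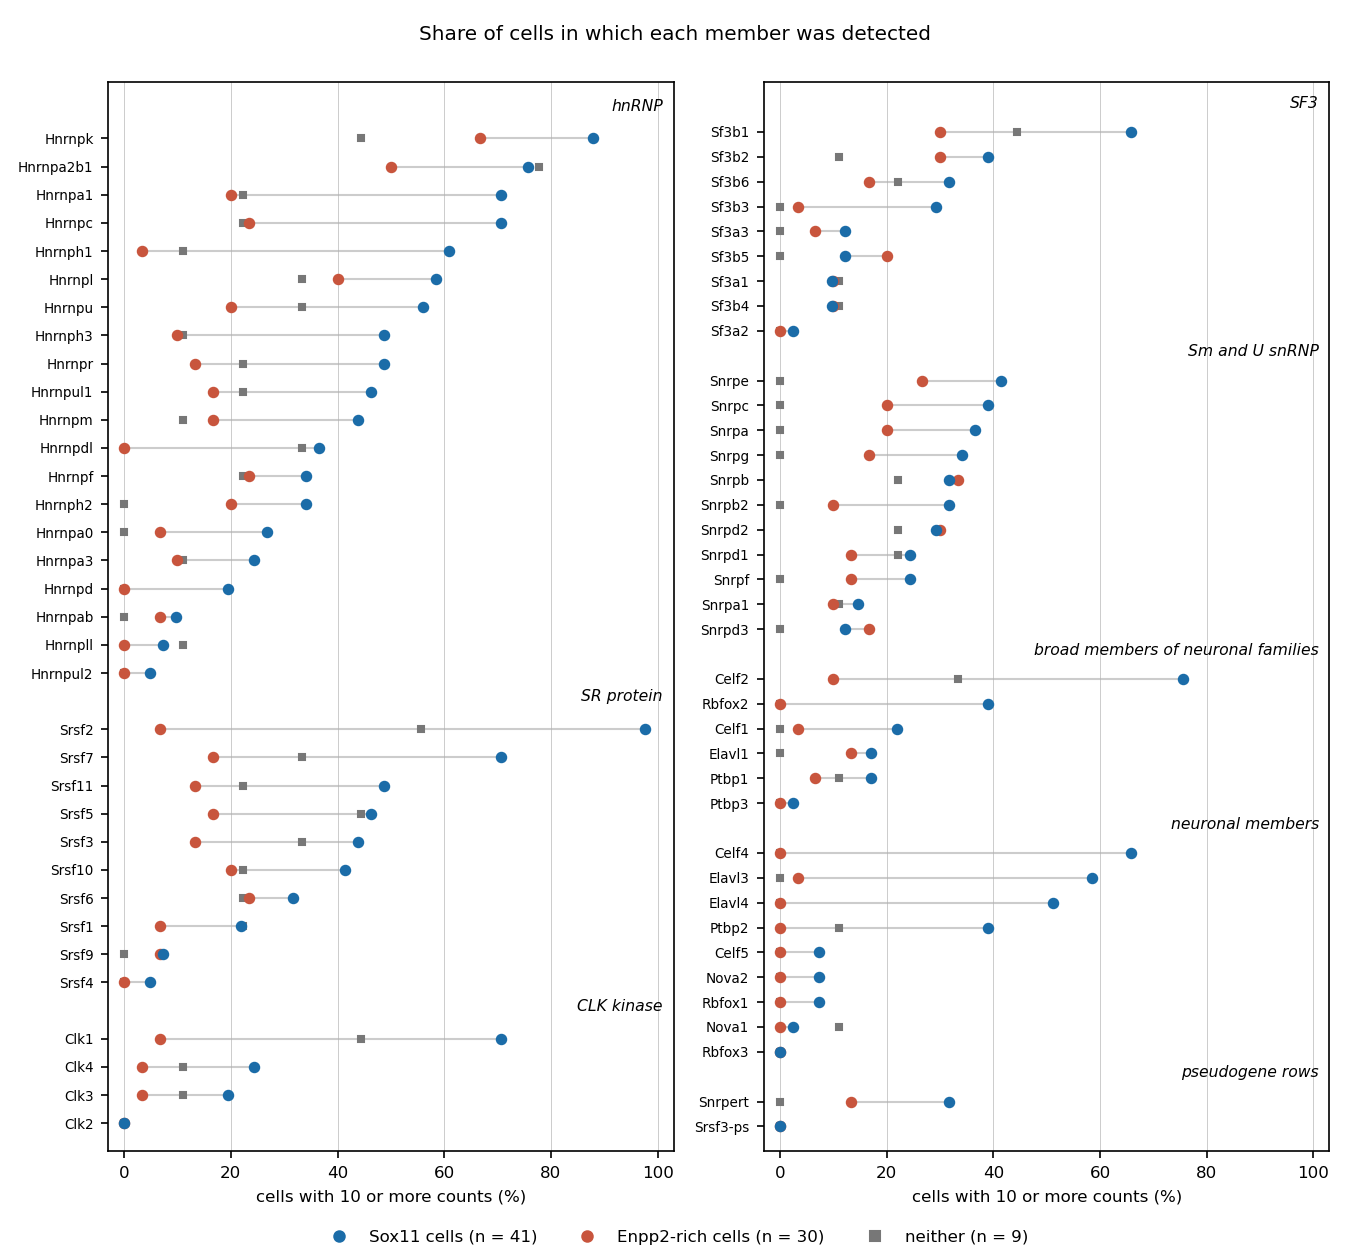
Share of cells (%) with 10 or more counts for each of the 71 members, by family, in 41 Sox11 cells (blue), 30 Enpp2-rich cells (red) and 9 cells of neither class (grey squares). Srsf2 has the widest separation, at 97.6% against 6.67%, and Snrpb, Snrpd2 and Snrpd3 have their blue and red points close together.

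The pools were also compared with edgeR's quasi-likelihood test across 10639 genes, Sox11 A and B against Enpp2-rich A and B, with Benjamini-Hochberg adjustment over all genes. An adjusted p under 0.05 was reached by 56 genes (0.526%), 50 of them higher in Sox11 cells (0.47%), and by 2 of the 68 members tested, Hnrnpdl and Elavl4, both higher. At an unadjusted p under 0.05, 11 of the 68 members were higher and 0 lower, against 721 (6.78%) higher and 339 lower of all 10639 genes. The fitted difference was above 0 for 62 of the 68 members (91.2%) and for 60.6% of all genes, with medians of 2.38 and 1.09. With the dataset as a block no gene was called at all (884 at an unadjusted p under 0.05), and both members had an adjusted p of 0.574 in edgeR. With DESeq2, 2984 of 15302 genes (19.5%) and 11 of 71 members (15.5%) were called, the 11 all higher in Sox11 cells, where 14.7% of all genes were higher. Both calls were also lost in edgeR without Sox11 B, without Enpp2-rich A and without Enpp2-rich B, fits that leave 1 pool in a class. Over all alternatives the log2 difference ran from 15.14 to 16.03 for Hnrnpdl and from 12.82 to 17.51 for Elavl4. With RLE scaling Elavl4 had an adjusted p of 0.0625 and Hnrnpdl 0.0454 in edgeR.

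**Figure D4:**
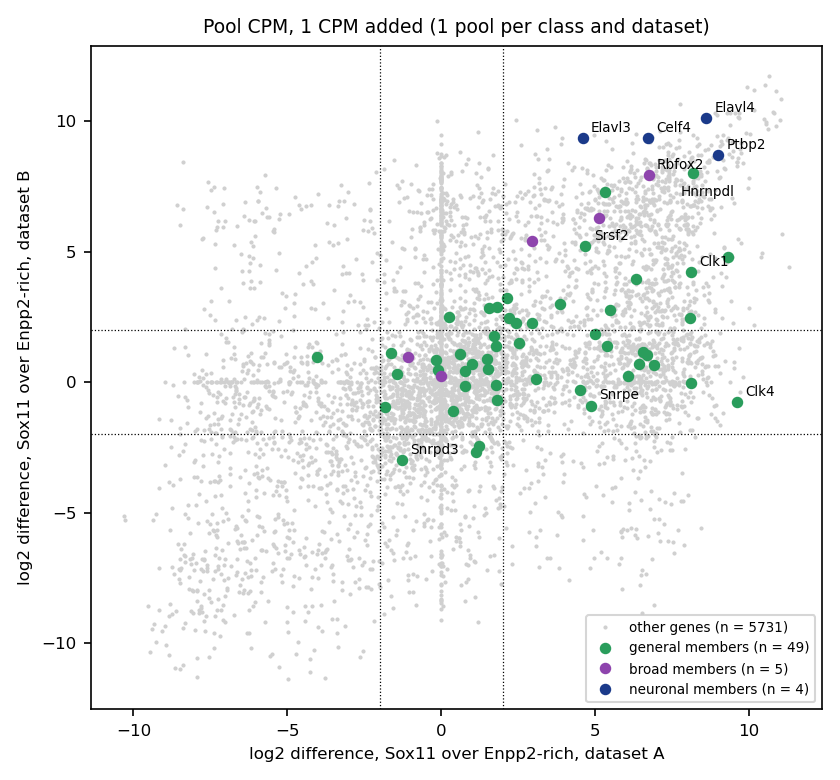
Log2 difference of pool CPM (1 CPM added), Sox11 over Enpp2-rich, in dataset A (x axis) and dataset B (y axis) for members and 5731 other genes at 10 or more counts in at least 5 cells; dotted lines mark 4-fold. The 4 neuronal members lie in the upper right with Srsf2, Rbfox2 and Hnrnpdl, and no member lies in the lower left beyond both lines.

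Among the neuronal members, 4 were detected in many Sox11 cells. Elavl4 (HuD), which stabilises neuronal transcripts, was detected in 21 of 41 Sox11 cells (51.2%, interval 35.1 to 67.1%), 0 of 30 Enpp2-rich cells, which allows a share of up to 10%, and 0 of 9 remaining cells. Its pool level was 430 and 1105 CPM in the Sox11 pools of datasets A and B, 0.10 and 0 CPM in the Enpp2-rich pools and 0 CPM in the remaining cells. The single-cell values of Sox11 cells ran from 0 through a median of 127 to 4078 CPM, and no Enpp2-rich cell passed 0.453 CPM. Elavl4 was thus high in about as many Sox11 cells as it was missing from. Against a floor of 3 counts per pool its level in dataset B was at least 10167-fold higher in Sox11 cells. The fitted log2 difference was 13.70 (SE 2.74, adjusted p = 0.0477, edgeR's quasi-likelihood test), a size that depends on the prior count since 1 pool was at 0. With the dataset as a block or with RLE scaling this call was lost, as given above.

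Elavl3 (HuC), a close relative of Elavl4, was detected in 24 of 41 Sox11 cells, 1 of 30 Enpp2-rich cells and 0 of 9 remaining cells. Pool levels were 317 and 654 CPM in Sox11 cells, 12.2 and 0 CPM in Enpp2-rich cells and 0.12 CPM in the remaining cells. Sox11 cells ran from 0 through a median of 32.0 to 2786 CPM, and the single Enpp2-rich cell above the limit had 180 CPM. The classes overlapped at 180 CPM and below. Its adjusted p in edgeR was 0.477. Exons of Elavl3 overlap those of the predicted gene Gm49318 on the same strand.

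Celf4, a CELF family regulator of neuronal transcripts, was detected in 27 of 41 Sox11 cells (65.9%, interval 49.4 to 79.9%) and in no cell of the other classes. Pool levels were 119 and 659 CPM in Sox11 cells and 0.15 and 0 CPM in Enpp2-rich cells. Its median over Sox11 cells was 58.9 CPM and its highest value 4413 CPM, against a highest of 0.899 CPM in an Enpp2-rich cell. Celf4 was the neuronal member found in most cells, and its Sox11 pool was lower in dataset A than in dataset B. Its adjusted p in edgeR was 0.130.

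Ptbp2 was detected in 16 of 41 Sox11 cells, 0 of 30 Enpp2-rich cells and 1 of 9 remaining cells. Pool levels were 511 and 429 CPM in Sox11 cells, 0 and 0.04 CPM in Enpp2-rich cells and 1.73 CPM in the remaining cells. Its median over Sox11 cells was 0 CPM, and cells with detection had a median of 1115 CPM. The pattern was a minority of Sox11 cells at high values and the others near 0. Its adjusted p in edgeR was 0.0559.

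The paralog Ptbp1, found in most dividing and non-neuronal cells, had no such class pattern. It was detected in 7 of 41 Sox11, 2 of 30 Enpp2-rich and 1 of 9 remaining cells. Pool levels were 44.3 and 38.8 CPM in Sox11 cells, 94.1 and 19.5 CPM in Enpp2-rich cells and 212 CPM in the remaining cells. The order of the classes differed between the datasets.

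The other neuronal members were rare. Celf5, Nova2 and Rbfox1 were each detected in 3 Sox11 cells and in no cell of the other classes. Nova1 was detected in 1 Sox11 cell and in 1 of the 9 remaining cells, whose pool stood at 164 CPM because of that cell. Rbfox3, which encodes the mature-neuron antigen NeuN, was detected in 0 of 41 Sox11 cells, which allows a share of up to 7.32%. It had 4 counts in the Sox11 B pool and 1 in the Enpp2-rich A pool. The neuronal set in Sox11 cells thus consisted mainly of Celf4, Elavl3, Elavl4 and Ptbp2.

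**Figure D5:**
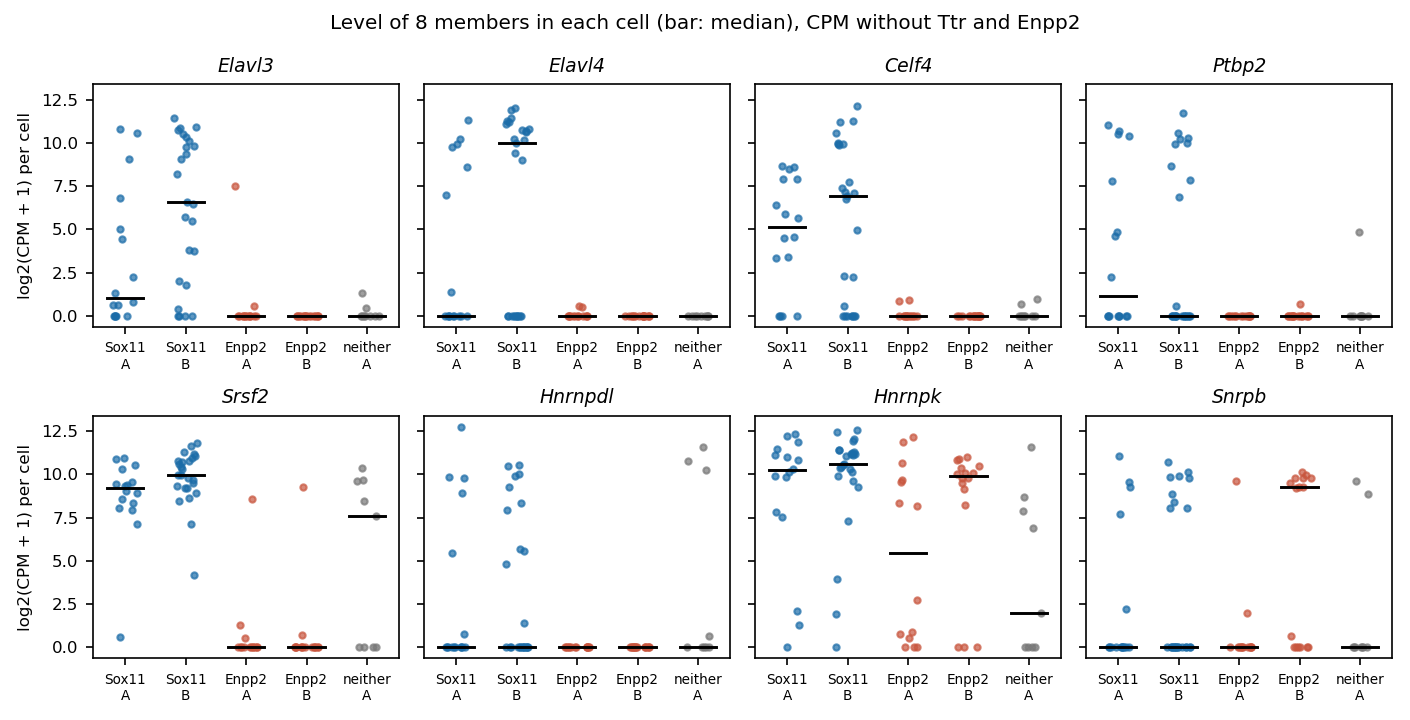
Level of 8 members in each cell as log2(CPM + 1), by class and dataset (A or B); points are cells and bars are medians. Elavl3, Elavl4, Celf4 and Ptbp2 spread from 0 to high values in Sox11 cells, with intermediate values for Elavl3 and Celf4, and are near 0 in nearly all others, Srsf2 is high in 40 of 41 Sox11 cells, and Hnrnpk is high in cells of every class.

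Neuronal members were not all found in the same Sox11 cells. At full depth, without thinning, 2 of 41 cells had none of the 9 members detected, 10 had 1, 8 had 2, 13 had 3, 7 had 4 and 1 had 5. Thinned to 500000 counts, 4 had none. Elavl3 and Elavl4 were both detected in 16 cells, Elavl3 alone in 8, Elavl4 alone in 5 and neither in 12. Elavl3 and Celf4 were both detected in 15 cells, and Elavl3 and Ptbp2 in 13. In the other classes 29 of 30 Enpp2-rich cells and 7 of 9 remaining cells had none, and no cell had more than 1. Both cells that met the Sox11 and the Enpp2 condition had 2 neuronal members at full depth and 1 after thinning.

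Of the broad members, Celf1, Celf2 and Rbfox2 were at least 4-fold higher in the Sox11 pools of both datasets. Celf2 was detected in 31 of 41 Sox11, 3 of 30 Enpp2-rich and 3 of 9 remaining cells, with pool levels of 936 and 1079 CPM, 120 and 24.3 CPM, and 307 CPM. These were 7.80-fold and 44.5-fold higher in Sox11 than in Enpp2-rich pools (adjusted p = 0.400, edgeR). Rbfox2, a splicing regulator that reads the same sequence as Rbfox1, was detected in 16 of 41 Sox11 cells and had 0 counts in all Enpp2-rich cells. Its pool levels of 106 and 242 CPM were at least 705-fold and at least 2224-fold higher than the floor of 3 counts per pool (adjusted p = 0.224, edgeR). Celf1 was detected in 9 Sox11 cells and 1 Enpp2-rich cell, at 168 and 77.8 CPM against 3.84 and 0 CPM, 43.6-fold higher in dataset A and at least 716-fold higher in dataset B. Ptbp3 was detected in 1 Sox11 cell.

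Elavl1 (HuR), the member of its family that most tissues express, separated by dataset and not by class. It was listed at 0 counts in all 41 cells of dataset A, as were 12 of the 1428 rows detected in 11 or more cells of dataset B. Arithmetically 0 of 41 cells allows a share of up to 7.32%, but the processing notes name 2 genome builds and whether both datasets were counted alike is not given in the sources used here, so the 0 is not read as absence. In dataset B it was detected in 7 Sox11 and 4 Enpp2-rich cells, with pool levels of 229 and 195 CPM. Its class difference therefore rests on dataset B alone.

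In the hnRNP family, Hnrnpk and Hnrnpa2b1 were the genes detected in most cells. Hnrnpk, which binds C-rich RNA, was detected in 36 of 41 Sox11 cells (87.8%), 20 of 30 Enpp2-rich cells (66.7%) and 4 of 9 remaining cells. Its pool levels were 1700 and 2021 CPM in Sox11 cells, 1117 and 941 CPM in Enpp2-rich cells and 543 CPM in the remaining cells. Sox11 cells had a median of 1496 CPM and Enpp2-rich cells 740.0 CPM, and their ranges overlapped from 0 to 4610 CPM. The 1.52-fold and 2.15-fold higher pools made it one of the least separated hnRNP genes. Hnrnpa2b1, which binds transcripts in nucleus and cytoplasm, was detected in 31, 15 and 7 cells of the 3 classes, at 1007 and 1487 CPM, 290 and 566 CPM, and 745 CPM. Its pools were 3.47-fold and 2.63-fold higher in Sox11 than in Enpp2-rich cells.

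Hnrnpdl, a relative of Hnrnpd that binds AU-rich RNA, was the general member that passed the test. It was detected in 15 of 41 Sox11 cells (36.6%, interval 22.1 to 53.1%), 0 of 30 Enpp2-rich cells, which allows up to 10%, and 3 of 9 remaining cells. Pool levels were 289 and 257 CPM in Sox11 cells, 0 and 0 CPM in Enpp2-rich cells and 635 CPM in the remaining cells. Sox11 cells ran from 0 to 6851 CPM with a median of 0, so most of them overlapped the Enpp2-rich cells at 0. The Sox11 pools were at least 1932-fold and at least 2361-fold higher than the floor of 3 counts. The fitted log2 difference was 15.90 (SE 2.93, adjusted p = 0.0360, edgeR's quasi-likelihood test), again of a size that depends on the prior count. With the dataset as a block this call was lost, as given above. The remaining cells of dataset A, which are outside the Sox11 class too, thus had the highest pool level.

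Hnrnph1, which binds G-rich runs, was detected in 25 Sox11 cells, 1 Enpp2-rich cell and 1 remaining cell. Its levels were 663 and 755 CPM in Sox11 pools, 0.05 and 25.9 CPM in Enpp2-rich pools and 13.7 CPM in the remaining cells (adjusted p = 0.365, edgeR). Hnrnpd, which binds AU-rich elements, was detected in 8 Sox11 cells and in no cell of the other classes, and Hnrnpa0 in 11 Sox11 and 2 Enpp2-rich cells. Hnrnpu, a chromatin-bound scaffold protein, was detected in 23, 6 and 3 cells, at 387 and 442 CPM, 8.24 and 169 CPM, and 195 CPM. In both datasets the Sox11 pool was the higher for 15 of the 18 hnRNP genes, and the remaining 3 differed in direction between datasets, where 40.3% of all genes were higher in both and 35.7% had no common direction.

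Srsf2 (SC35), an SR protein of nuclear speckles, was the member found in the largest share of Sox11 cells. It was detected in 40 of 41 (97.6%, interval 87.1 to 99.9%), in 2 of 30 Enpp2-rich cells (6.67%, interval 0.818 to 22.1%) and in 5 of 9 remaining cells. Pool levels were 698 and 1304 CPM in Sox11 cells, 26.1 and 33.8 CPM in Enpp2-rich cells and 492 CPM in the remaining cells. Sox11 cells ran from 0.539 through a median of 750 to 3561 CPM, and all but 2 Enpp2-rich cells were close to 0. By plate, Srsf2 was detected in 12 of 12, 6 of 6, 3 of 3 and 4 of 4 Sox11 cells on P1, P2, P3 and PL4 and in 15 of 16 on the dataset A plate. In Enpp2-rich cells it was detected in 0 of 2 on P1, 1 of 4 on P3, 0 of 10 on PL4 and 1 of 14 on the dataset A plate. The pools were 26.7-fold and 38.5-fold higher in Sox11 cells, with a fitted log2 difference of 5.02 (SE 1.51, adjusted p = 0.180, edgeR). Exons of Srsf2 overlap those of Mfsd11 and Mettl23, on the opposite strand.

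Srsf7, another SR protein, was detected in 29, 5 and 3 cells of the 3 classes. Its levels were 1130 and 1308 CPM in Sox11 pools, 77.2 and 163 CPM in Enpp2-rich pools and 280 CPM in the remaining cells, 14.6-fold and 8.01-fold higher in Sox11 than in Enpp2-rich pools (adjusted p = 0.380, edgeR). Srsf3 also met the 4-fold limit in both datasets. Srsf1, detected in 9 Sox11 and 2 Enpp2-rich cells, did not keep its direction, at 183 and 11.9 CPM in Sox11 pools against 77.8 and 69.4 CPM, each of the latter resting on 1 cell. Compared with the remaining cells in dataset A, 1 of 9 SR protein genes was at least 4-fold higher in Sox11 cells and 5 of 9 were at least 4-fold lower in Enpp2-rich cells, or 0 and 7 of 9 without the 2 remaining cells with few genes. Over all genes these shares were 40.9% and 25.5% with all cells, and 39.7% and 26.2% without those 2.

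Clk1, a kinase of SR proteins, was detected in 29 of 41 Sox11, 2 of 30 Enpp2-rich and 4 of 9 remaining cells. Its pool levels were 859 and 1566 CPM, 2.097 and 83.5 CPM, and 1080 CPM. Sox11 cells had a median of 1292 CPM and a highest value of 4440 CPM, Enpp2-rich cells a median of 0 and a highest value of 1110 CPM, so the ranges overlapped although the medians were far apart. Its adjusted p in edgeR was 0.267. Clk3 met the 4-fold limit with fewer cells, 8 against 1, and in dataset A through 1 of 16 Sox11 cells. Its Sox11 pools were at 47.8 and 143 CPM, and the remaining cells at 153 CPM. Clk4, detected in 10 Sox11 cells and 1 Enpp2-rich cell, was at 811 CPM in the Sox11 pool of dataset A and 49.7 CPM in that of B, against 0.05 and 85.6 CPM, so its direction differed between datasets. Clk2 was detected in no cell.

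Among SF3 genes, Sf3b1, the largest SF3B subunit, was detected in 27 Sox11, 9 Enpp2-rich and 4 remaining cells. Its levels were 1145 and 1021 CPM in Sox11 pools, 199 and 356 CPM in Enpp2-rich pools and 627 CPM in the remaining cells, 5.76-fold and 2.87-fold higher in Sox11 than in Enpp2-rich pools. Sf3b3 was detected in 12 Sox11 cells and 1 Enpp2-rich cell and was the SF3 gene past the 4-fold limit in both datasets. Sf3b2 was detected in 16 and 9 cells and had pool levels of 224 and 237 CPM against 132 and 262 CPM. Subunits of the same complex thus differed in how far the classes were apart.

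No Sm or U snRNP gene met the 4-fold limit in both datasets. Snrpb, a core Sm protein, was detected in 13 of 41 Sox11 and 10 of 30 Enpp2-rich cells, namely 1 of 14 in dataset A and 9 of 16 in dataset B. Its pools were at 309 and 298 CPM in Sox11 cells and 87.4 and 480 CPM in Enpp2-rich cells. Snrpd2 and Snrpd3 were the 2 members lower in the Sox11 pools of both datasets, where 40.3% of all genes were higher and 24% lower at any size. Snrpd2, detected in 12 Sox11 and 9 Enpp2-rich cells, was at 40.5 and 47.9 CPM against 145 and 93.7 CPM, and Snrpd3, detected in 5 and 5, at 36.9 and 7.68 CPM against 91.5 and 67.9 CPM. Neither passed the test. Both are Sm ring proteins, and in some pools nearly all counts came from 1 cell: 92.7% for Snrpd2 in Enpp2-rich A and 98.04% for Snrpd3 in Sox11 A.

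Snrpe, another Sm ring protein, was detected in 17 Sox11 and 8 Enpp2-rich cells, but its level in dataset A rested on 1 cell. Its Sox11 pool of dataset A stood at 1387 CPM, of which a single cell with 16534 CPM gave 84.2% of the counts. Without that cell the pool was at 236 CPM. The pools of Sox11 B, Enpp2-rich A and Enpp2-rich B were at 46.0, 46.7 and 86.4 CPM. The same cell gave 82.3% of the pool's counts for Snrpert, a processed pseudogene of Snrpe, so reads of the 2 rows may be shared and the split between them is uncertain.

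Pool values rested on few cells more often outside the Sox11 class. For the typical member the leading cell gave 44.6% and 27.4% of the counts in the Sox11 pools, 97.8% and 54.3% in the Enpp2-rich pools and 89.7% in the remaining cells. One cell gave more than the sum of all others for 21 of 57 and 14 of 59 members in the Sox11 pools and for 36 of 40 and 27 of 51 in the Enpp2-rich pools. A pool level alone therefore says little about how many cells held a gene.

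The 9 remaining cells were compared in dataset A only, with 1 pool each and so with no test. Against them, 27 of 59 members (45.8%) were at least 4-fold higher in Sox11 cells and 5 (8.47%) at least 4-fold lower, where all genes gave 40.9% and 17.6%. In Enpp2-rich cells 9 members (15.3%) were at least 4-fold higher and 18 (30.5%) lower, where all genes gave 28.9% and 25.5%. The share of members higher in Sox11 cells was close to that of all genes. Without the 2 cells with few genes, 24 members were higher and 7 lower in Sox11 cells (39.7% and 18.8% of all genes), and 8 higher and 22 lower in Enpp2-rich cells (28.2% and 26.2%). All 3 CLK genes past the detection limit were lower in Enpp2-rich cells than in the remaining cells. Of these, Clk3 and Clk4 were each detected in 1 of the 9 remaining cells.

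The wider splicing machinery was described with a list of 94 further genes, of which 92 were in the table and 78 had 10 or more counts in at least 5 cells. In both datasets 27 of the 78 (34.6%) were at least 4-fold higher in Sox11 than in Enpp2-rich pools and 0 at least 4-fold lower, against 19.9% and 9.69% of all genes. They were 10 of 34 early and catalytic spliceosome genes, 8 of 16 SR-related genes and kinases, 8 of 23 other regulators and 1 of 5 exon junction genes. Detection was in a higher share of Sox11 cells in both datasets for 56 and in a lower share for 4 of the 78, against 39.2% and 24.1% of all genes. Prpf38b, a spliceosome activation factor, was detected in 11 Sox11 and 0 Enpp2-rich cells, Snrnp200, the U5 helicase, in 10 and 0, and Srrm4, a regulator of neuronal microexons, in 8 and 0. Lower in the Sox11 pools of both datasets were 3 genes of the list, at under 4-fold in dataset B and, for Lsm4 and Snrpn, in dataset A: Lsm4 (23.8 and 68.7 against 81.7 and 210.3 CPM), Puf60 (63.1 and 258 against 275 and 327 CPM) and Snrpn (220.3 and 499 against 350.3 and 627 CPM). Median log2 differences of 2.94 and 1.73 lay beside 2.94 and 1.14 for the members. In edgeR 0 of 89 genes of the list tested were called, with a lowest adjusted p of 0.0723. Of the 89, 6 were higher at an unadjusted p under 0.05, a share near the 6.78% of all genes.

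Exons of 29 of the 71 members overlap those of another protein-coding gene in GENCODE vM39, among them Hnrnpdl with Enoph1, Hnrnpa2b1 with Cbx3, Hnrnpk with Rmi1 and Hnrnpu with Cox20. Whether counting used the strand is not given in the sources used here, so reads in these overlaps cannot be told apart. The levels of such members may include reads of their neighbours. Several hnRNP and Sm genes also have processed copies elsewhere in the genome, whose share of reads is unknown.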

How the data were processed

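Single cells were profiled by template-switching cDNA synthesis with PCR preamplification in plates, per the labels' protocols, and no molecular identifiers are mentioned there. The authors deposited whole-number counts per gene and cell. STAR 2.7.10b and featureCounts from Subread 2.1.1 are named in the submitters' processing notes, after FastQC 0.12.1, along with the builds GRCm39 and mm10. Which build gave the counts, the annotation and the strand setting are not given in the sources used here.

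Members and lists were chosen with earlier results of these data known. Ttr and Enpp2 were left out before scaling to CPM. Detection was set at 10 counts in a cell, and genes needed this in 5 cells for pool comparisons. Cells were thinned to 500000 counts for numbers per cell, and none was shallower. Folds were taken on the log2(CPM + 1) scale, which understates low genes, or as plain CPM ratios where "fold higher" is printed for a gene. Summed pools were tested with edgeR 4.0.16 in R 4.3.3 (filterByExpr, TMM, quasi-likelihood, no block, threshold 0.05 after Benjamini-Hochberg adjustment). The fit held all 5 pools, but the lone pool of the remaining cells adds nothing to the spread. The spread comes from the Sox11 and Enpp2-rich pools only. DESeq2 1.42.0 was an alternative. Scripts were run on simulated data with less spread between pools than here, where the median dispersion in edgeR was 4.83. That run checks the code and says nothing on how reliable the calls are. Other work used Python 3.11.15, numpy 2.4.6, pandas 2.3.3 and scipy 1.17.1. Doublets were not called.

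Named genes were all neuronal and broad members, the 2 general members of each family detected in most cells, and up to 6 general members in each direction with the largest difference of the same sign in both datasets (6 upward, and the 2 there were downward). Others are named as examples, after their values were seen. Per the labels each dataset is 1 sort gate, so its pools could be paired, and deviations from class means correlated at 0.140 over 5790 genes. The reported fit does not use this pairing. A blocked fit was an alternative, as were other scalings, filters, gates and leaving out pools or cells.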

Additional observations from a re-analysis of the deposited data

Results flagged for a closer look

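The 5 members below are those among the genes named by rule and with 10 or more counts in at least 5 cells in which Sox11 cells stood above Enpp2-rich cells in one dataset and below them in the other. Over all compared members 18 of 59 (30.5%) had no common direction in the 2 datasets, against 35.7% of all genes, Srsf1 (1.22 and -2.45) and Sf3b5 (1.13 and -2.69) among them. The difference between datasets was not tested, since each class has 1 pool per dataset. Values are log2 differences of pool CPM with 1 CPM added, Sox11 over Enpp2-rich. Clk4 was at 9.60 in dataset A and -0.77 in dataset B. Snrpe was at 4.86 and -0.89, the first of which rests mostly on 1 cell. Snrpb was at 1.81 and -0.68, and Sf3b2 at 0.76 and -0.15. Ptbp1 was at -1.07 and 0.95.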

How the results depend on the processing

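The number of genes called by edgeR moved most. It was 56 as reported, 95 with library size only, 338 with no filter on low counts, 325 without the deepest cell of each pool and 2984 with DESeq2. With the dataset as a replicate block 0 genes were called, and with 1 pool left out the count ran from 0 to 78. Without Sox11 B, Enpp2-rich A or Enpp2-rich B it was 0. RLE scaling moved the median of all genes from 1.09 to 1.20 (log2). The 20 members at least 4-fold higher in both datasets became 17 to 24 under the other gates, filters, scalings and depths, 29 at 2-fold (27.7% of all genes), and 23 or 34 in dataset B or A alone (31.5% or 39%). The 0 members lower became 1 at 2-fold (15.1% of all genes) and 3 or 1 in dataset B or A alone (19.8% or 20.2%). The difference in general members per cell ran from 7 to 14 with 1 dataset left out, and in neuronal members from 2 to 3. With detection set at 50 or more counts these differences were 9 and 1.5. Of 31 named members with a fitted value, 25 kept their direction in every alternative. The other 6 changed sign with 1 pool left out. Elavl1 ran from -13.95 (without Sox11 B) to 14.68 and was -0.67 without Enpp2-rich A, Nova1 from -2.07 (without Sox11 B) to 6.94 and Snrpe from -0.55 (without Sox11 A) to 4.39. Without Enpp2-rich A, Ptbp1 was at the upper end of -1.21 to 1.20, and Sf3b2 and Snrpb at the lower ends of -0.074 to 0.78 and -0.55 to 1.77 (log2). The cause was not tested. Tests against the 9 remaining cells were planned and not run, because dataset B holds none. With 9 to 25 cells a pool, and 0 counts in some, levels below a few counts per pool could not be separated.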
